A study of Mus musculus with 6 samples.

Results

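The 10 genes described here make or recover the pyrimidine nucleotides of the cell. They are Cad, Dhodh, Umps, Ctps, Ctps2, Uck1, Uck2, Cmpk1, Tyms and Slc29a1, given by name and found in the deposited table of raw fragment counts by splitting each locus name at its commas. Each matched 1 of 51499 loci, and none of the 10 loci was merged with another gene. The measurements were poly(A)-selected RNA sequencing of SV40 immortalized mouse embryonic fibroblasts (MEFs) of 2 genotypes, with 3 independent cultures of each. WT cells carried Yme1l fl/fl, that is, floxed alleles that are intact. Both genotypes came from floxed cells transduced with Cre recombinase, from which single clones were expanded and then genotyped as WT or Yme1l-/-. A difference between the genotypes therefore cannot be told apart from a difference between clones. How many clones the 3 cultures of each genotype represent was not given in the sources used here. YME1L, the product of the deleted gene, degrades proteins at the inner membrane of mitochondria, and the study asked how its loss bears on pyrimidine supply. P-values measure the spread between these cultures.

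Cells build pyrimidines de novo by assembling the ring from glutamine, aspartate and bicarbonate, and the product, UMP, is converted to UTP and CTP in the cytosol. A single step of this route, the oxidation of dihydroorotate, takes place at the mitochondrial inner membrane and feeds electrons to ubiquinone. Salvage instead takes nucleosides such as uridine from the medium or from RNA breakdown and phosphorylates them, and proliferating cells draw on both routes for RNA, DNA, nucleotide sugars and phospholipids.

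The libraries held between 33180867 and 49351107 counted fragments, and the deepest were Yme1l-/- replicates 2 and 3. Yme1l1, the symbol of Yme1l in the table, retained 20.7% of its WT level in Yme1l-/-, with no overlap between the libraries. Of 11 fibroblast markers, 9 were tested, 7 of them were lower and 1 was higher in Yme1l-/- (34.1% and 33.6% over all tested loci), and the summed level of the list was 10963 to 11520 CPM (counts per 1000000 fragments, TMM-scaled) in the WT libraries and 6724 to 7207 CPM in the Yme1l-/- libraries. Thy1 and Lum had at most 11 fragments in any library. WT replicate 2 stood apart for Col3a1 (301 CPM, against 86.3 and 91.1 in the other WT libraries) and Dcn (7.85 CPM, against 1.57 and 1.56). The 4 epithelial markers summed to 32.9 to 34.9 CPM in WT and to 0.294 to 0.657 CPM in Yme1l-/-, and Krt18 was most of the sum in WT (31.9 CPM) but not in Yme1l-/- (0.026 CPM). The summed levels of 4 haematopoietic markers (1.68 to 1.87 CPM in WT, 3.46 to 3.93 CPM in Yme1l-/-, 2 of them at 0 throughout, Ptprc at most 1 fragment), of 3 endothelial markers (0.827 to 1.37 and 1.63 to 1.98 CPM), of 3 muscle markers (0.398 to 0.604 and 2.2 to 3.2 CPM, 1 of them at 0 throughout) and of 2 neural markers (at most 0.0919 CPM) were low in both genotypes. The part of these differences in the results below was not tested.

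Among the 10 pyrimidine genes, Uck2, Slc29a1, Dhodh and Cmpk1 were lower in Yme1l-/- and none was higher (adjusted p under 0.05, edgeR quasi-likelihood test, Benjamini-Hochberg over 13867 tested loci). The largest differences were those of Uck2, a uridine-cytidine kinase, and Slc29a1, the equilibrative nucleoside transporter ENT1, with 66.1% and 69.9% of the WT level. The transcripts of Cad and Umps, which encode every activity of de novo UMP synthesis other than that of Dhodh, were measured at 99.9% and at 103% of WT and were not called. Calls were the rule in this comparison, since 67.7% of all tested loci were called, 33.6% as higher and 34.1% as lower, so that 4 lower calls among 10 genes is near the background for that direction. The median log2 fold change of the 10 genes was -0.06, against -0.00 for all tested loci. Their median absolute log2 fold change was 0.075, against 0.384 over all tested loci. The libraries of the genotypes did not overlap for 4 genes in the lower direction and for Ctps in the higher direction. Over all tested loci 71.9% did not overlap, 36.0% in the lower and 35.9% in the higher direction. In bulk RNA, fewer cells of a type and less RNA per cell cannot be told apart.

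**Figure D1:**
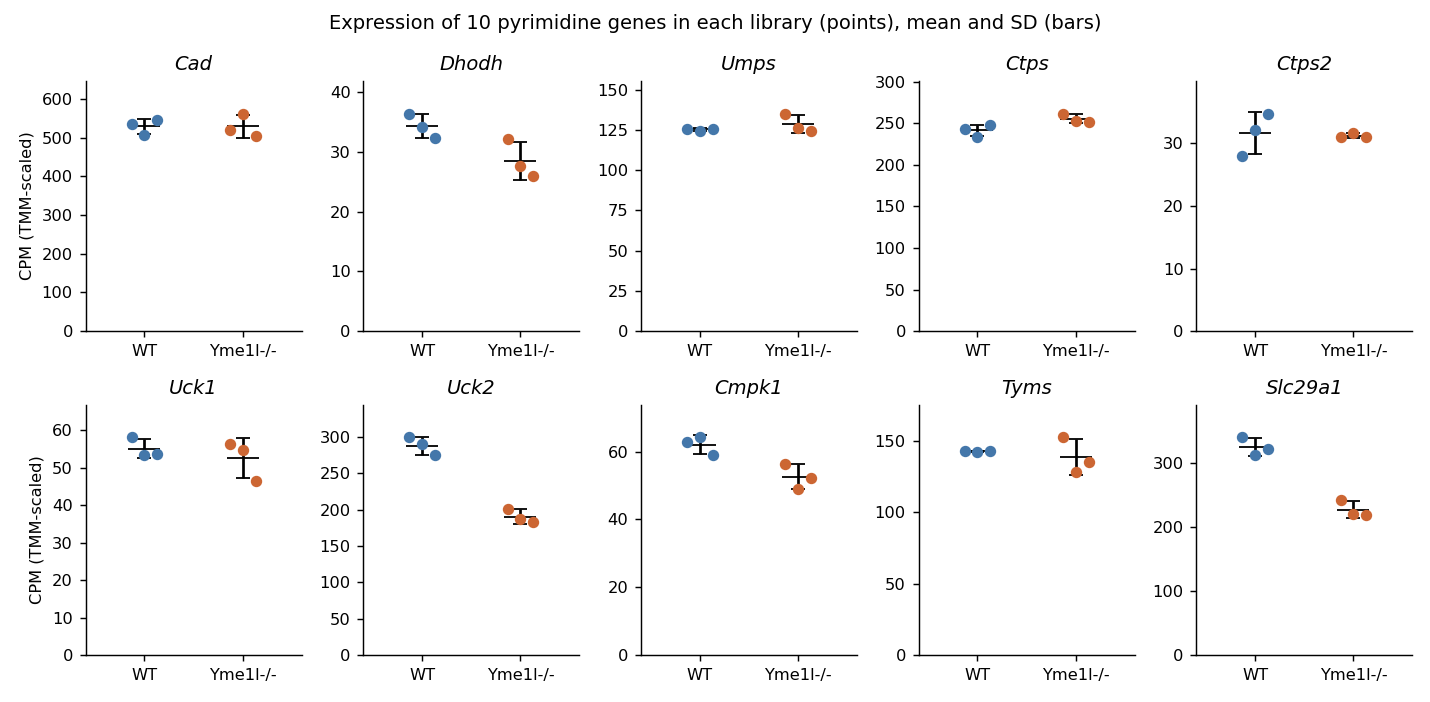
Expression of each gene in CPM on a linear axis from 0, with WT libraries in blue and Yme1l-/- libraries in orange. Points are single libraries and bars give the mean and SD of 3 libraries. The libraries of the genotypes separate for Dhodh, Uck2, Cmpk1 and Slc29a1, with Yme1l-/- lower, and narrowly for Ctps, with Yme1l-/- higher.

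The deposited table gives each locus its position, and the median fold change differed between chromosomes. Each gene was therefore also set against the median log2 fold change of all tested loci on its chromosome. The median was -0.32 on chromosome 8, where 26.4% of 705 loci were above 0, and -0.21 on chromosome X. It was -0.15 on chromosome 1, -0.10 on chromosome 4 and 0.17 on chromosome 17. Chromosomes 2, 5 and 16 had medians between -0.02 and 0.01. In each of the 3 Yme1l-/- libraries taken alone the chromosome medians were nearly the same, for example -0.30, -0.33 and -0.33 on chromosome 8. Relative to these medians Uck2 and Slc29a1 were still called lower, Dhodh and Cmpk1 were not called, and Ctps and Ctps2 were called higher. In that fit 62.9% of 13802 loci were called, 31.2% higher and 31.7% lower, and the median of the 10 genes was -0.03. DNA copy number was not measured, so a chromosome median is a property of these transcripts only.

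**Figure D2:**
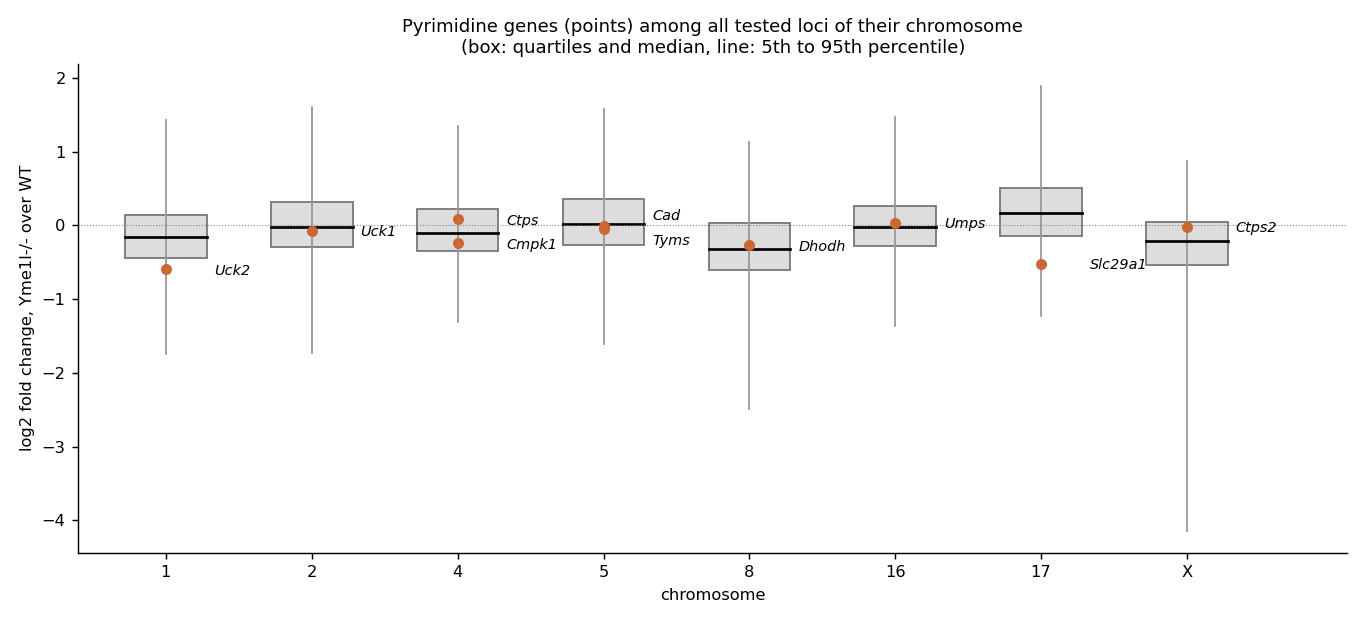
Log2 fold change (Yme1l-/- over WT) of each pyrimidine gene, as an orange point, among all tested loci of its chromosome. Boxes span the quartiles with the median as a black line, and thin lines run from the 5th to the 95th percentile. Dhodh sits near the median of chromosome 8 (-0.32), whereas Uck2 and Slc29a1 lie below the lower quartile of chromosomes 1 and 17.

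**Figure D3:**
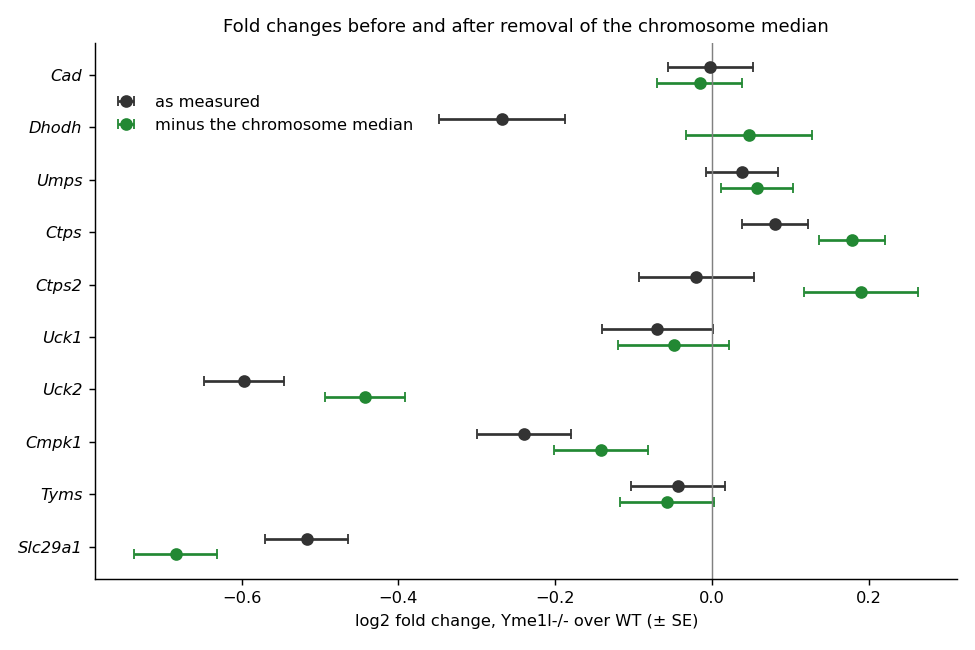
Log2 fold change of the 10 genes with its SE, as measured (black) and after the chromosome median was taken off (green). Dhodh moves from -0.27 to 0.05, Ctps2 from -0.02 to 0.19, and Slc29a1 from -0.52 to -0.68.

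The promoters of 4 genes are shown because 3 of them were called lower and 1 was above its chromosome median. RefSeq windows from 250 bases before to 50 bases after the annotated start (GRCm38.p6, 5′ to 3′ on the strand of the gene, all 4 on the minus strand) were found for 9 of the 10 genes, and the outermost start was used where a gene had several. Capitals mark matches to the motifs searched, on either strand.
Uck2, chr1:167285078-167285377: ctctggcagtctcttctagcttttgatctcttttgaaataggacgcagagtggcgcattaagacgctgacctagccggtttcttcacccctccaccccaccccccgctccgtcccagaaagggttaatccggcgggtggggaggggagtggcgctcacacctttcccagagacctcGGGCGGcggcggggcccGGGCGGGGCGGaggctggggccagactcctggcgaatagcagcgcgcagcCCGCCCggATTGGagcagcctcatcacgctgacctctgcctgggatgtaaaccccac
Slc29a1, chr17:45599569-45599868: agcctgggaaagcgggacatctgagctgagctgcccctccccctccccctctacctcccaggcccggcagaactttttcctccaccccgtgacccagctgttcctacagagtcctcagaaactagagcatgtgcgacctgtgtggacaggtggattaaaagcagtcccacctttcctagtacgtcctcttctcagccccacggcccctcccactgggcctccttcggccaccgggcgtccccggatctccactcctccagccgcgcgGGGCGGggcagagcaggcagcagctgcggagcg
Cmpk1, chr4:114987179-114987478: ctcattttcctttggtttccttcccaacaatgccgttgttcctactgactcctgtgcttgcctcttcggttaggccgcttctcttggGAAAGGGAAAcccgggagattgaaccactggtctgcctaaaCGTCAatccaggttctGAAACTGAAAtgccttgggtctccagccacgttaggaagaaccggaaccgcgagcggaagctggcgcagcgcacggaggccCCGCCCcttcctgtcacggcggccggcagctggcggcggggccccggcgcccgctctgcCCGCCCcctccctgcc
Ctps, chr4:120570227-120570526: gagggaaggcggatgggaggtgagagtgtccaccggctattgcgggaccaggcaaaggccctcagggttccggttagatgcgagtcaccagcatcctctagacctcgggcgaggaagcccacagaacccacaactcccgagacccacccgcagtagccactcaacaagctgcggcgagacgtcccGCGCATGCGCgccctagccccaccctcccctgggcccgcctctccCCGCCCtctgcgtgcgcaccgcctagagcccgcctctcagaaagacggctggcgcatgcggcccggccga
The GC box GGGCGG stood in the windows of 7 of the 9 genes, where 35.9% of 27026 windows of the same length held it. The Uck2 window had 4 of them, 2 of which overlap, and the CCAAT box (CCAAT, 38.0% of windows), and the Slc29a1 window had 1, at 18 bases after the start. The Cmpk1 window held the interferon-stimulated response element (GAAA, any 2 bases, GAAA, 3.49% of windows) at -163 and -106. The palindromic NRF1 motif, the first run of capitals in the Ctps window, was found in 0.981% of windows, among them those of Ctps, at -65, and Uck1, at -12. Among the others, Umps held the full cAMP response element TGACGTCA (1.85% of windows), Tyms held an E-box CACGTG (7.24%) and an ETS motif CCGGAAGT (3.99%), and the shorter cAMP response motif TGACG (20.9%), which the full element contains, was in 4 windows. The E2F motif TTTGGCGC (0.537%) and the C/EBP-ATF motif TGATGNAA (4.06%) matched none of the 9. No window was found for Dhodh, which was also called lower. The Ctps2 window held none of the motifs and is not shown, although Ctps2 too was called higher relative to its chromosome. All motif hits are matches of letters in a fixed window.

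De novo synthesis starts with Cad, the trifunctional enzyme that joins glutamine, bicarbonate and aspartate into dihydroorotate. Cad (mm10, chr5:31054780-31078479) was the most abundant of the 10 by fragments, with 535.5, 508 and 545 CPM in the WT libraries and 520.0, 562 and 505 CPM in the Yme1l-/- libraries. The libraries of the genotypes interleaved. Its log2 fold change was -0.00 ± 0.05 (SE), and the 95% interval ran from a change of -8.02% to 8.45% (edgeR adjusted p = 0.978). The direction of so small a value was not fixed, and it was 0.06 under upper-quartile scaling. Umps, which encodes the bifunctional UMP synthase (chr16:33954782-33967312), had 125.6, 124 and 125.8 CPM in WT and 135, 126 and 124 CPM in Yme1l-/-. The libraries of the genotypes overlapped. The log2 fold change of Umps was 0.04 ± 0.05 (SE), with a 95% interval from -0.06 to 0.14 and an edgeR adjusted p of 0.491. Relative to the loci within 5 Mb, Umps was called higher, at 0.12 (edgeR adjusted p = 0.0409), whereas relative to its chromosome it was at 0.06 (adjusted p = 0.302).

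Dhodh encodes dihydroorotate dehydrogenase, the enzyme of the route that sits in the mitochondrial inner membrane. Dhodh (chr8:109591343-109608673) had 36.4, 34.2 and 32.4 CPM in WT and 32.1, 27.6 and 26.01 CPM in Yme1l-/-. All Yme1l-/- libraries were below all WT libraries, but replicate 1 only by a small margin. The mean fell from 34.3 ± 2.03 to 28.6 ± 3.19 CPM (SD, n = 3), or -0.27 ± 0.08 (SE) on the log2 scale (edgeR adjusted p = 0.0111). Without Yme1l-/- replicate 3 it was -0.20 and was not called (adjusted p = 0.0527). This decrease matched that of the chromosome it lies on. Set against the chromosome 8 median, Dhodh was at 0.05 ± 0.08 (SE), with a 95% interval from -0.13 to 0.22 (edgeR adjusted p = 0.629), and 53.6% of the loci of the chromosome had a lower log2 fold change. Of the 50 nearest tested loci, which span 5.26 Mb, 29 were lower than Dhodh, and their median was -0.32.

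CTP synthases aminate UTP to CTP, and Ctps is the form linked to proliferating cells. Ctps (chr4:120539868-120570276) had 243, 234 and 247 CPM in WT and 261, 253 and 252 CPM in Yme1l-/-. All Yme1l-/- libraries were above all WT libraries. The log2 fold change of 0.08 ± 0.04 (SE, 95% interval -0.01 to 0.17) was not called (edgeR adjusted p = 0.11). It was called under upper-quartile scaling, at 0.14 (adjusted p = 0.012). Relative to the chromosome 4 median, Ctps was called higher, at 0.18 ± 0.04 (SE, edgeR adjusted p = 0.00307), and 38 of its 50 nearest tested loci were lower. It was called higher relative to the chromosome in each of the 6 fits that left out a culture.

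Ctps2, the second CTP synthase gene (chrX:162901238-163032508), had 28.1, 32.2 and 34.8 CPM in WT and 31.0, 31.8 and 31.0 CPM in Yme1l-/-. The Yme1l-/- values lay within the WT range. Its log2 fold change was -0.02 ± 0.07 (SE, 95% interval -0.18 to 0.14, edgeR adjusted p = 0.825). Against the chromosome X median it was called higher, at 0.19 ± 0.07 (SE, edgeR adjusted p = 0.0408), and 37 of the 49 nearest tested loci were lower. The size ranged from 0.12 to 0.27 over the fits that left out a culture, and the call depended on single libraries. It was lost without WT replicate 1 (0.12), WT replicate 2 (0.19), Yme1l-/- replicate 2 (0.18) or Yme1l-/- replicate 3 (0.21), and when all libraries were thinned to the smallest total (0.17). Against the 25 nearest loci on each side and against the loci within 5 Mb Ctps2 was at 0.28 and called. The ratio of Ctps2 to Ctps fragments was 0.115, 0.138 and 0.141 in WT and 0.119, 0.126 and 0.123 in Yme1l-/-. These ratios overlapped, with a difference of -0.10 on the log2 scale (exact permutation test, two-sided, p = 0.4, n = 3 per genotype).

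Salvage begins with entry of nucleosides, for which Slc29a1 encodes a broadly expressed plasma membrane transporter. Slc29a1 (chr17:45585200-45599606) had 339.8, 312 and 321 CPM in WT and 242, 220.1 and 218 CPM in Yme1l-/-. The highest Yme1l-/- library was well below the lowest WT library. The mean fell from 324 ± 14.2 to 227 ± 13.4 CPM (SD, n = 3), or -0.52 ± 0.05 on the log2 scale (SE, 95% interval -0.63 to -0.40, edgeR adjusted p = 5.35e-06). Chromosome 17 went the other way, and relative to its median Slc29a1 was at -0.68 ± 0.05 (SE, edgeR adjusted p = 6.85e-07). Only 10.3% of the 668 tested loci of the chromosome, and 5 of the 50 nearest, had a lower log2 fold change. An antisense transcript, Gm17080, overlaps the locus, and 4.16% of the 100-base windows of the Slc29a1 transcript are found in it. Umps and Ctps2 also overlap a gene on the opposite strand (Gm15829 and S100g), and 3.43% of the Umps windows are found in Gm15829. Whether counting used strand was not given in the sources used here.

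Uridine and cytidine are phosphorylated by the kinases encoded by Uck2 and Uck1. Uck2 (chr1:167222883-167289856) had 299, 289.97 and 275 CPM in WT and 202, 186 and 183 CPM in Yme1l-/-. The gap between the genotypes was again wider than the spread within them. The mean fell from 288 ± 12.5 to 190.4 ± 9.74 CPM (SD, n = 3), or -0.60 ± 0.05 on the log2 scale (SE, 95% interval -0.71 to -0.49, edgeR adjusted p = 1.2e-06). With the chromosome 1 median removed Uck2 was at -0.44 ± 0.05 (SE, edgeR adjusted p = 1.72e-05), with 17.5% of the loci of the chromosome and 8 of the 50 nearest lower. The deposited locus ends past the annotated gene, whose end is at 167285320. Antisense transcripts (Gm37982 and Gm2453) also overlap it, and 1.10% of the windows of the Uck2 transcript are shared with Gm2453.

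Uck1 (chr2:32236590-32260159), the other uridine-cytidine kinase gene, had 58.2, 53.5 and 53.8 CPM in WT and 56.4, 54.8 and 46.6 CPM in Yme1l-/-. Yme1l-/- replicate 3 was lower than the other 5 libraries, which overlapped. The log2 fold change of Uck1 was -0.07 ± 0.07 (SE, 95% interval -0.23 to 0.09, edgeR adjusted p = 0.41), and it was 0.01 without that replicate. The deposited locus runs beyond the annotated gene into Pomt1 on the opposite strand, and 11.8% of the windows of the Uck1 transcript are shared with Gm4482, so its level is uncertain. The ratio of Uck1 to Uck2 fragments was 0.194, 0.185 and 0.196 in WT and 0.280, 0.294 and 0.254 in Yme1l-/-. All 3 ratios were higher in Yme1l-/-, and the difference of 0.53 on the log2 scale had an exact permutation p of 0.1 (two-sided, n = 3 per genotype), the smallest that 3 against 3 allows.

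**Figure D4:**
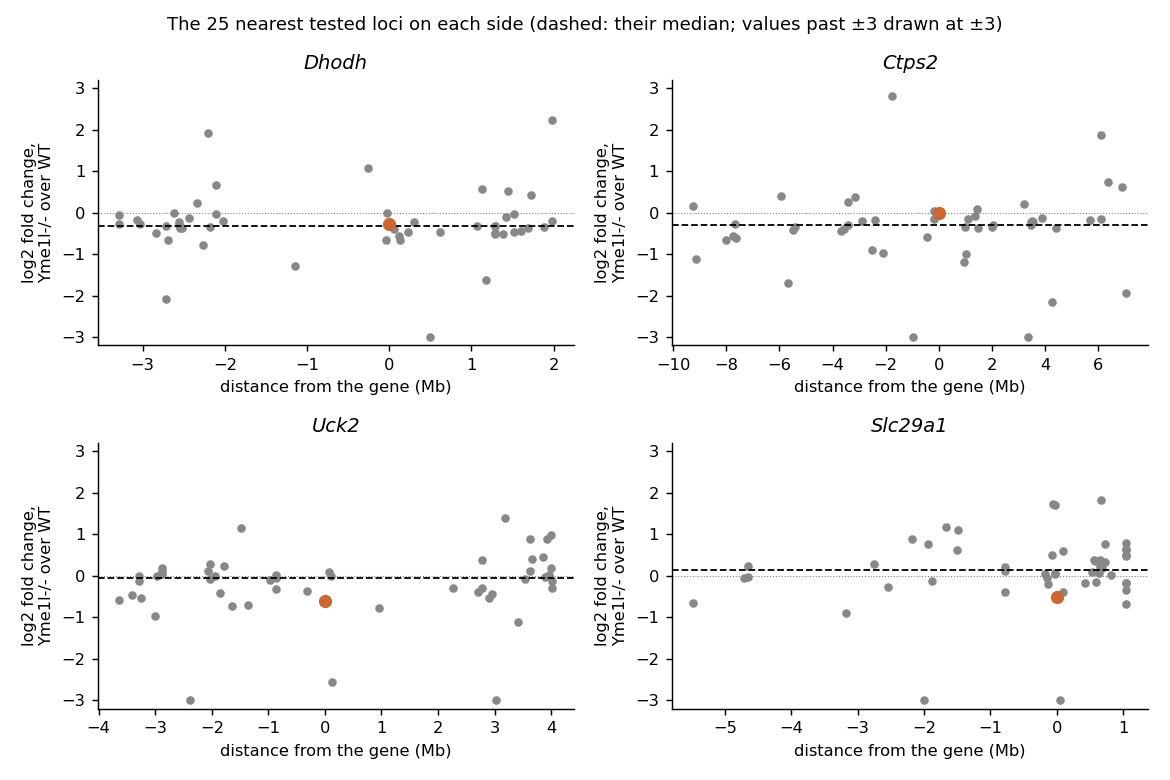
Log2 fold change of the 25 nearest tested loci on each side of Dhodh, Ctps2, Uck2 and Slc29a1 (grey) against their distance in Mb, with the gene itself in orange and the median of the neighbours dashed. Values past 3 in either direction are drawn at the edge. Dhodh lies on the median of its neighbours, Ctps2 above it, and Uck2 and Slc29a1 below it, with 8 and 5 of 50 neighbours lower.

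Cmpk1 encodes the cytosolic UMP-CMP kinase, which serves de novo synthesis and salvage alike. Cmpk1 (chr4:114959336-114987241) had 62.9, 64.2 and 58.99 CPM in WT and 56.5, 48.99 and 52.3 CPM in Yme1l-/-. All Yme1l-/- libraries were below all WT libraries, by a small margin for replicate 1. The mean fell from 62.0 ± 2.71 to 52.6 ± 3.75 CPM (SD, n = 3), 84.8% of WT, or -0.24 ± 0.06 (SE) on the log2 scale (edgeR adjusted p = 0.00407). Relative to the chromosome 4 median it was at -0.14 ± 0.06 (SE) and was not called (edgeR adjusted p = 0.0587). That value was near the threshold and was called lower under 7 of the alternatives, among them the fits without WT replicate 3 (-0.17) and without Yme1l-/- replicate 1 (-0.19). Ctps, on the same chromosome, was at 0.18 on that scale.

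Tyms encodes thymidylate synthase, which makes dTMP from dUMP and is known to rise with cell division. Tyms (chr5:30058202-30073617) had 143.4, 142.6 and 142.9 CPM in WT and 153, 128 and 135 CPM in Yme1l-/-. The WT libraries were nearly equal and lay within the wider Yme1l-/- range. Of the 100-base windows of the Tyms transcript, 3.95% are also found in transcripts of other genes. The log2 fold change was -0.04 ± 0.06 (SE, 95% interval -0.18 to 0.09, edgeR adjusted p = 0.546). Single Yme1l-/- libraries decided the sign and the call of this value. Without replicate 2 it was 0.012 (adjusted p = 0.884). Without replicate 1 Tyms was called lower, at -0.12 (edgeR adjusted p = 0.0346), and at -0.14 relative to the chromosome (adjusted p = 0.0176). Relative to its 50 nearest loci it was called lower at -0.18 (adjusted p = 0.0208). Yme1l-/- replicate 1 was also the highest of the 3 Yme1l-/- libraries for Dhodh, Umps, Ctps, Uck1, Uck2, Cmpk1 and Slc29a1, and it was the shallowest Yme1l-/- library.

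Proliferation genes are given beside Tyms, Cad and Ctps, whose transcripts are known to follow cell division. Of 20 symbols 19 were found and tested, 7 were higher, 5 were lower and 7 were not called, with a median of 0.03. With chromosome medians removed, 7 were higher and 7 lower. The count of higher calls was 4 without WT replicate 1, WT replicate 2 or Yme1l-/- replicate 2. Mcm2, a subunit of the replicative helicase, rose by 0.73 ± 0.05, and Cdc6, a factor that loads it, by 0.38 ± 0.05 (log2 fold change ± SE, edgeR calls). Cdc6 was at 0.03 relative to its chromosome and not called. Pcna, the sliding clamp, rose by 0.23 ± 0.04. Mki67 (-0.76 ± 0.10), the cyclin gene Ccne2 (-0.69 ± 0.10) and Rrm2 (-0.66 ± 0.04), the regulated subunit of ribonucleotide reductase, were lower, also relative to their chromosomes. Relative to its chromosome Rrm2 was at -0.22, and Mcm2 was at 0.39, still called higher. Over all tested loci 33.6% were called higher and 34.1% lower, so the counts of this list are near the background.

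Levels can be compared between the 10 genes only per length. The authors' FPKM scale (fragments per kilobase scaled to library size) gives 1 value per genotype without replicates. On it Slc29a1 was highest in WT, at 210.1 (144 in Yme1l-/-), and Dhodh lowest in both genotypes, at 20.9 and 17.5. Tyms came next in WT at 168, then Uck2 at 122. In Yme1l-/- the order began with Tyms (156), followed by Slc29a1, Ctps (101) and Uck2 (94.9). The FPKM values of Uck2 differed by less than its counts, which stood at 66.1% of WT, and the reason was not tested. With CPM divided by the length of the longest annotated coding transcript, Slc29a1 was also highest in WT, at 146 ± 6.39 CPM per kilobase (SD, n = 3), followed by Ctps (89.2 ± 2.54), Cad (74.2 ± 2.73), Uck2 (60.9 ± 2.64) and Tyms (45.2 ± 0.126). Umps (35.9), Uck1 (27.5), Cmpk1 (19.6), Dhodh (16.8) and Ctps2 (9.45) came below them, and no gene's WT range overlapped that of the next. In Yme1l-/-, Uck2 was at 40.2 ± 2.06 and Tyms at 43.9 ± 3.98 CPM per kilobase, and their ranges, 38.7 to 42.6 and 40.5 to 48.3, overlapped. Only Slc29a1 and Cmpk1 held the same place on both scales in WT, and Dhodh was lowest on the FPKM scale only. The scales differ in the transcript lengths and also in how fragments were quantified, and the part of each in the order was not tested.

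The other genes of pyrimidine metabolism were taken from hand-written lists, whose counts stand beside 33.6% of all tested loci called higher and 34.1% lower (31.2% and 31.7% relative to the chromosome medians), and no list was tested as a set. For salvage and interconversion of nucleotides, 18 loci of 18 symbols included 17 that were tested, 7 higher, 5 lower and 5 not called, with a median log2 fold change of 0.05. Cmpk2, the mitochondrial UMP-CMP kinase, rose from 1.29 to 5.07 CPM (1.97 ± 0.16, log2 fold change ± SE). Nme4, a mitochondrial nucleoside diphosphate kinase, rose by 1.56 ± 0.09, and the loci that hold Tymp (thymidine phosphorylase, merged with Sco2) and Nme3 (merged with Mrps34) by 0.82 ± 0.09 and 0.44 ± 0.06. Dctd, the deoxycytidylate deaminase that provides dUMP to Tyms, fell by 0.62 ± 0.05 on the log2 scale, with 88.96 CPM in WT and 57.99 in Yme1l-/-. Nme6 (-0.37 ± 0.09) and Tk1, the cytosolic thymidine kinase (-0.19 ± 0.05), were lower. With the medians removed the Tymp locus was at 0.23, the Nme3 locus at 0.27, Nme4 at 1.39 and Cmpk2 at 2.41, all called higher. On that scale Dctd was at -0.30 and Tk1 at -0.55, both called, and Nme6 was at -0.01 and not called.

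Among 8 transporters 4 were tested, 2 higher and 2 lower. Slc29a2, which encodes the related transporter ENT2, fell from 20.5 ± 0.505 to 13.1 ± 0.484 CPM (SD, n = 3), -0.65 ± 0.07 (log2 fold change ± SE, edgeR adjusted p = 4.87e-06). It was at -0.76 relative to chromosome 19. Slc29a3, which encodes ENT3 of lysosomes and mitochondria, rose from 22.97 ± 1.69 to 46.3 ± 1.11 CPM (SD, n = 3), 1.01 ± 0.06 (adjusted p = 7.76e-08), and was at 0.72 relative to its chromosome. The ENT genes of this family therefore moved in both directions. The remaining ENT gene, Slc29a4, had 4 to 10 fragments per library, and the concentrative transporter genes Slc28a1, Slc28a2 and Slc28a3 had at most 3. Of the mitochondrial pyrimidine nucleotide carriers, Slc25a33 rose by 0.37 ± 0.09 and Slc25a36 was lower (-0.37 ± 0.06, SE). Relative to their chromosomes they were at 0.47, called, and at -0.01, not called.

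For breakdown and nucleotidases, 7 of 10 genes were tested, 5 were higher, 1 was lower and 1 was not called, with a median of 0.24, where 33.6% and 34.1% of all tested loci were higher and lower. Against the chromosome medians 3 were higher and 2 lower, with a median of -0.10. Nt5e encodes the ecto-nucleotidase CD73, which releases nucleosides from extracellular nucleotides, and it went from 12.5 ± 1.29 to 0.495 ± 0.0944 CPM (SD, n = 3). Nt5m, a mitochondrial nucleotidase (0.91 ± 0.09), Nt5c2, a cytosolic nucleotidase (0.47 ± 0.05), and Samhd1, a dNTP hydrolase (0.32 ± 0.05, SE), rose. Nt5m was at 0.56 relative to its chromosome. Dpyd, Dpys and Upb1, the enzymes of the reductive breakdown of uracil, had at most 2 fragments in any library.

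Of 19 genes of precursor supply, 7 were higher, 4 were lower and 8 were not called, with a median of 0.07. The folate enzymes of mitochondria Shmt2 (361 to 794 CPM, 1.14 ± 0.05) and Mthfd2 (0.92 ± 0.04, log2 fold change ± SE) rose. Lower were the PRPP synthetase gene Prps2 (-0.38 ± 0.05, SE) and the cytosolic folate enzyme gene Mthfd1 (-0.30 ± 0.04). Mthfd1 turned to 0.14 relative to chromosome 12 and was then called higher. Shmt2 (0.84), Mthfd2 (0.58) and Prps2 (-0.17) kept their calls on that scale with smaller values. Ass1, argininosuccinate synthase, which competes for aspartate, was at -0.08 ± 0.06 (SE) and not called (edgeR adjusted p = 0.255).

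Of 10 genes that use UTP or CTP, 9 were tested, 4 higher, 3 lower and 2 not called, with a median of -0.05. Uap1, which makes UDP-N-acetylglucosamine, was at -0.52 ± 0.05, the locus that holds Ugdh (UDP-glucose dehydrogenase, merged with Smim14 and Gm43552) at -0.56 ± 0.04, and Cmas, which makes CMP-sialic acid, at -0.36 ± 0.06 (log2 fold change ± SE, edgeR calls). All 3 were lower relative to their chromosomes too, Cmas at -0.70. Ugp2, UDP-glucose pyrophosphorylase, rose by 0.37 ± 0.05, and Pcyt1a and Pcyt2, which consume CTP to make the CDP-choline and CDP-ethanolamine of phospholipid synthesis, by 0.32 ± 0.04 and 0.31 ± 0.06. Relative to their chromosomes Pcyt1a was still called, and Ugp2 (0.02) and Pcyt2 (-0.05) were not.

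**Figure D5:**
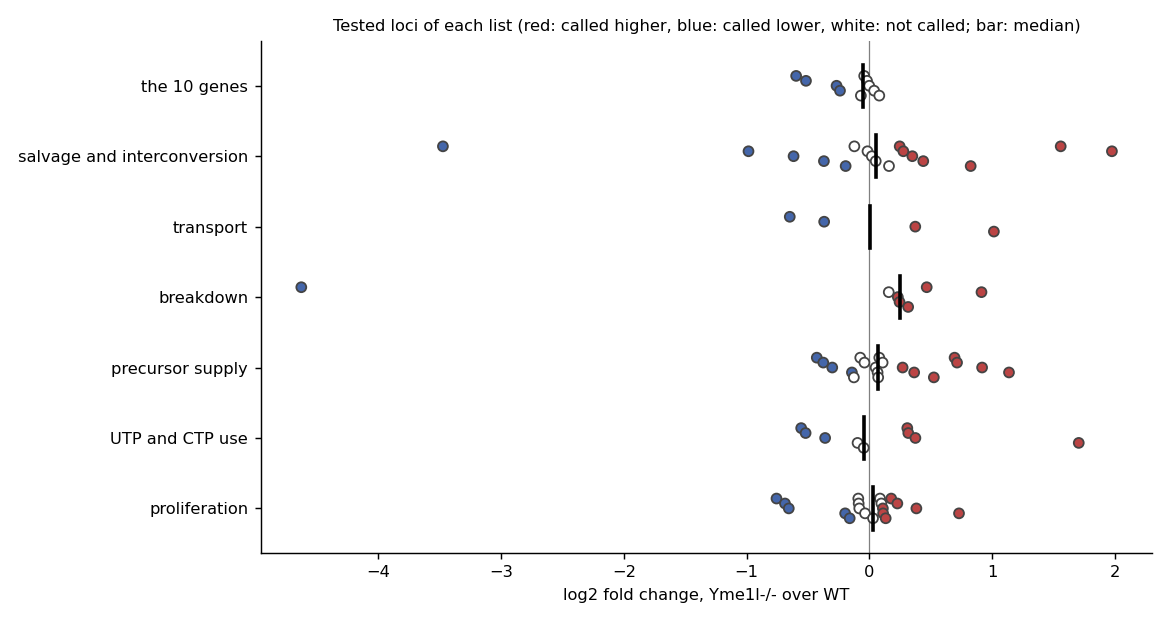
Log2 fold change of every tested locus of the 10 genes (top) and of the 6 other lists, with calls in red (higher) and blue (lower), loci not called in white, and the list median as a bar. No gene of the top row is red, and every other list holds calls in both directions.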

How the data were processed

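The authors mapped read pairs from stranded poly(A) libraries to mm10 (Ensembl annotation) with HISAT2 2.0.4, assembled transcripts with StringTie 1.3.3 and compared the genotypes with Cuffdiff 2.2.1. The deposited count table holds raw fragment counts per assembled locus, without normalization, and how multi-mapped fragments were counted was not given in the sources used here. A second deposited table holds FPKM as 1 value per genotype, computed by the authors, and the results of the authors' own test (log2 ratio, p-value, q-value), which were not used. Positions came from that table (starts counted from 1) and were missing for 65 tested loci. In 635 loci the name joins several genes, and their counts cannot be divided.

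The genotypes were compared with edgeR 4.0.16 and limma 3.58.1 under R 4.3.3 (filterByExpr, minimum count 10, TMM factors 0.973 to 1.04, glmQLFit with robust estimation, glmQLFTest, two-sided, no covariates). Benjamini-Hochberg adjustment ran over all tested loci, and an adjusted p under 0.05 was a call. For the relative fit, the median log2 fold change of the chromosome was a fixed offset of the Yme1l-/- libraries and was treated as known. Scripts were tested on simulated data. Within each genotype the libraries differed beyond sampling noise (lowest chi-square over degrees of freedom 8.54), and none repeated another. The 10 genes had between 929 and 28324 fragments per library.

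The genes and lists were chosen with earlier results of these data known. From each list the text names up to 3 called loci per direction with the most extreme log2 fold changes, at least 10 CPM in the higher genotype and no overlap between libraries, and also Cmpk2, Slc25a33 and Ass1. The values of 2 genes that this rule names are not reported here. Alternatives were RLE or upper-quartile scaling, DESeq2 1.42.0, a filter of only 1 count in all or of 10 counts in each library, replicate number as a blocking term, thinning to the smallest library, 25 nearest loci on each side or loci within 5 Mb in place of the chromosome, and leaving out each culture.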

Additional observations from a re-analysis of the deposited data

How the results depend on the processing

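Uck2 and Slc29a1 were called lower under every alternative run, with log2 fold changes from -0.64 to -0.44 and from -0.68 to -0.46, removal of the chromosome median included, and every setting of the fits relative to the chromosome, the 25 nearest loci on each side or the loci within 5 Mb kept both calls (from -0.54 to -0.42 and from -0.72 to -0.66). Calls over all loci ranged from 8513 to 10051. Upper-quartile scaling moved the median of all loci to 0.055 and the share of calls that were higher from 49.6% to 55.1%. Under it 1 gene of the 10 (Ctps) was called higher, and Cad (0.057), Ctps2 (0.039) and Tyms (0.016) changed sign without a call. With the chromosome median removed, the 10 genes had 2 higher and 2 lower calls, Dhodh was at 0.047 and Ctps2 at 0.19, transporters had 1 lower call, breakdown genes 3 higher and 2 lower, and UTP and CTP use 2 higher. Relative to the 25 nearest loci on each side, 4 of the 10 genes were called lower. The share of all loci called lower was not counted for that fit, and it was 31.7% relative to the chromosome medians. Thinning to the smallest library left 1 relative higher call (Ctps). When every locus with at least 1 count was tested, 4 proliferation genes were higher.

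Over the fits that left out a culture, lower calls among the 10 genes ranged from 3 (without Yme1l-/- replicate 3) to 5 (without Yme1l-/- replicate 1), relative higher calls from 1 to 2, relative lower calls from 2 to 4 and higher proliferation calls from 4 to 7. Log2 fold changes ranged from -0.046 to 0.033 for Cad, from -0.10 to 0.051 for Ctps2, from -0.12 to 0.014 for Uck1 and from -0.12 to 0.012 for Tyms. Relative to the chromosome they ranged from -0.061 to 0.018 for Cad, from -0.033 to 0.11 for Dhodh and from -0.11 to 0.032 for Uck1.

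The labels do not say whether a replicate number marks a shared day or batch. Deviations of same-numbered libraries from their group means correlated at 0.144, -0.0939 and 0.048. These correlations are too few to decide whether the samples were paired. A fit with replicate number as a blocking term gave 9794 calls, in which 4 of the 10 genes were lower and none higher, and relative to the chromosome 2 were higher and 3 lower, with Cmpk1 added. The cause of these moves was not tested. Intervals and p-values cover the spread between cultures, not between clones.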
